A study of Homo sapiens with 6 samples.

Results

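The 10 genes described here encode the core proteins of the adherens junction and the desmosome, the adhesive contacts between epithelial cells. They are CDH1, CDH3, CTNNB1, CTNNA1 and CTNND1 of the adherens junction, DSC2, DSG2, DSP and PKP3 of the desmosome, and JUP, which belongs to both. They were taken by symbol from a table of 27024 entries, and the set was drawn up with earlier results of these data known. All 10 were found and all 10 passed the filter on low values, so that they are 10 of the 12493 genes tested. The table holds RNA-seq values of 6 libraries of YAPC, a human pancreatic cancer cell line used in the study as a model of the classical subtype. Each library came from cells kept in doxycycline (Dox) at 1 μg/ml for 6 days. The 3 iGLI2 libraries (YAPC-rtta-GLI2, plasmid pRetroX-Tight-Puro- GLI2) express GLI2, a transcription factor of the Hedgehog pathway, from a Dox-inducible promoter, and the 3 iEV libraries (YAPC-rtta-EV, plasmid pRetroX-Tight-Puro- EV) carry the empty vector. Both groups thus have the reverse tetracycline transactivator and the drug in common. The sources do not say whether the lines were clones or whether the replicates were separate cultures, and p-values measure only the spread between these libraries. Values of single libraries are given in the order of replicates 1, 2 and 3. In that order the library codes are YRE1A, YRE1B and YRE2A for iEV and YRG1A, YRG1B and YRG2B for iGLI2. The sources used here do not state what the digit and the last letter stand for. In bulk RNA, fewer cells that express a gene and less of its RNA per cell cannot be told apart.

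In an adherens junction, a classical cadherin such as E-cadherin crosses the membrane and binds a cadherin on the next cell. Its tail holds p120-catenin near the membrane and β-catenin or plakoglobin further in, and α-catenin links these to actin. In a desmosome, desmogleins and desmocollins take the place of the classical cadherins, plakoglobin and plakophilins bind their tails, and desmoplakin ties the plaque to keratin filaments. Loss of E-cadherin and a switch to N-cadherin are textbook features of the epithelial to mesenchymal transition (EMT), and repressors of the SNAI and ZEB families act on E-boxes in the CDH1 promoter.

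After 6 days of GLI2 expression, 4 of the 10 junction genes differed between the groups, and PKP3 had the largest difference of the 10. CDH1 and CTNNB1 were higher in iGLI2 cells by 1.30-fold and 1.22-fold in the ratio of mean FPKM (fragments per kilobase of transcript, scaled to the size of the library). PKP3 fell to 0.522 and DSP to 0.822 of their iEV means. The other 6 genes did not pass the test. Of the 10, 2 passed as higher and 2 as lower at an adjusted p under 0.05 (limma on log2(FPKM + 1), two-sided, Benjamini-Hochberg adjustment over all genes tested), where 10.1% of all genes tested passed as higher, 11.8% as lower and 21.9% in either direction. The groups did not overlap for 5 of the 10, against 42.0% of all genes tested. The median log2 fold change of the 10 was 0.11 and that of all genes tested was -0.015. The median size of the change, regardless of sign, was 0.21 for the 10 and 0.18 for all genes tested. Without iEV replicate 2, iEV replicate 3, iGLI2 replicate 2 or iGLI2 replicate 3, PKP3 was the 1 gene of the 10 that passed.

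**Figure D1:**
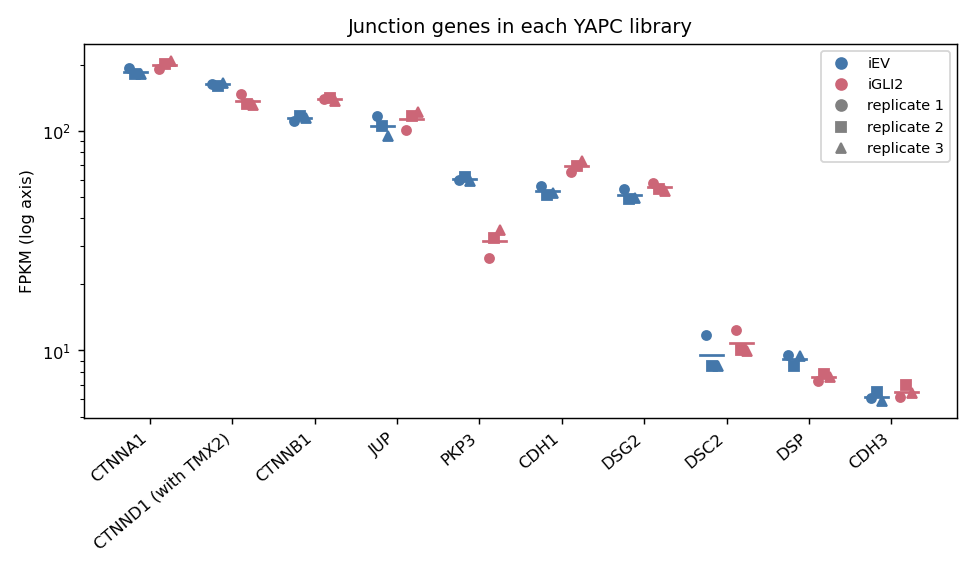
FPKM of the 10 junction genes (log axis) in each of the 3 iEV (blue) and 3 iGLI2 (red) libraries, with symbols for the replicates and lines for the group means, ordered by the iEV mean. The genes range from CDH3, at 5.87 to 6.95 FPKM, to CTNNA1, at 182 to 208 FPKM, and PKP3 is the gene whose groups lie farthest apart.

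GLI2 itself, which checks the labels, was at 0.466, 0.412 and 0.344 FPKM in the iEV libraries, against 94.5, 207 and 195 in the iGLI2 libraries, so that iGLI2 replicate 1 had the least of it. Of 6 epithelial markers, EPCAM, KRT7 and KRT19 had means between 405 and 870 FPKM, MUC1 fell from 21.7 ± 2.08 to 3.61 ± 0.283 FPKM (SD, n = 3 each), and KRT8 and KRT18, whose entries give the same span of chromosome 12, are listed at 0 in all 6 libraries. Such a 0 can be a failed estimate and was not read as absence. The defining markers of fibroblasts and leukocytes were low in both groups. COL1A1 had 1.41 ± 0.127 and 2.69 ± 0.365 FPKM (SD, n = 3 each), the other 7 fibroblast markers were at 0.142 FPKM or less in every library, and of the leukocyte markers PTPRC and CD3E were at 0.0609 FPKM or less. The summed level of the 8 fibroblast markers was between 1.51 and 1.63 FPKM in iEV and between 2.40 and 3.10 FPKM in iGLI2 libraries, and its part in the results was not tested. HLA-DRA, CD68 and LYZ, which tumor cells can also express, made up most of the sum of the 5 leukocyte markers, which was between 85.7 and 114 FPKM in iEV and between 12.7 and 19.6 FPKM in iGLI2 libraries. The estimated depth was higher in each of the 3 iGLI2 libraries than in any iEV library, and its part in the results was not tested. Small RNA genes held between 45.4% and 48.4% of the total FPKM in iEV libraries and between 38.9% and 40.4% in iGLI2 libraries. Leaving them out and rescaling the libraries moved the median log2 fold change of all genes from -0.015 to 0.055 and turned none of the 10 genes around.

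CDH1 encodes E-cadherin. It lies on chromosome 16 of hg19 from 68771195 to 68869444, on the plus strand, with 16 exons in the canonical transcript of the annotation. The study measured it by quantitative RT-PCR with the primer pair below, which is printed to show which part of the transcript those assays read.
CDH1 forward: atttttccctcgacacccgat
CDH1 reverse: tcccaggcgtagaccaaga
In GRCh37 the forward primer is at chr16:68835612-68835632 and the reverse primer, which reads the other strand, at chr16:68835702-68835720. These positions are coding sequence of exon 3, and the product of 109 bases stays within that exon, whereas the FPKM value draws on the whole gene. CDH1 had 56.3, 51.0 and 52.3 FPKM in the iEV libraries, against 64.8, 69.3 and 72.5 in the iGLI2 libraries. Every iGLI2 library was above every iEV library, and the closest were iEV replicate 1 and iGLI2 replicate 1. By immunoblot, the paper reports less E-cadherin in YAPC cells that stably express GLI2 than in empty vector cells. That is protein in other lines, whereas the values here are RNA after 6 days of Dox. CDH1 rose by 0.37 on the log2(FPKM + 1) scale (standard error 0.071, 95% interval 0.19 to 0.54, limma adjusted p = 0.0169), and 1472 of the genes tested had a larger log2 fold change. The call was lost without iEV replicate 2, iEV replicate 3, iGLI2 replicate 2 or iGLI2 replicate 3, where the log2 fold change was between 0.33 and 0.36 and the adjusted p reached 0.0775.

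CDH3 encodes P-cadherin, a second classical cadherin of epithelia, and its entry ends 38237 bases before that of CDH1 on the same strand. Its values were 6.05, 6.47 and 5.87 FPKM in the iEV libraries, against 6.12, 6.95 and 6.41 in the iGLI2 libraries. The groups overlapped, and the log2 fold change was 0.071 (95% interval -0.098 to 0.24, limma adjusted p = 0.509). The RNAs of CDH2 and CDH4, which encode N-cadherin and R-cadherin, were near 0. CDH2 was listed at 0 in 5 libraries and at 0.0101 FPKM in iEV replicate 3, and CDH4 did not exceed 0.0461 FPKM. CDH1 accordingly made up between 88.7% and 90.2% of the summed FPKM of these 4 cadherin genes in iEV libraries. Its share in iGLI2 libraries was between 90.8% and 91.9%. In iEV libraries CDH3 held between 9.70% and 11.3% of that sum, and in iGLI2 libraries between 8.12% and 9.11%. The sum itself was between 57.4 and 62.4 FPKM in iEV and between 70.9 and 78.9 FPKM in iGLI2 libraries.

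The catenins were the most abundant of the 10 genes. CTNNB1 encodes β-catenin, which binds the cadherin tail and, when not degraded, also acts as a coactivator in the nucleus. It lies on chromosome 3 of hg19 from 41240942 to 41281939 and had 111, 117 and 115 FPKM in iEV replicates 1, 2 and 3. In iGLI2 replicates 1, 2 and 3 it had 140, 141 and 136 FPKM, all above the iEV libraries. CTNNB1 rose by 0.28 on the log2(FPKM + 1) scale (standard error 0.056, 95% interval 0.15 to 0.42, limma adjusted p = 0.0180). Without iEV replicate 2, iEV replicate 3, iGLI2 replicate 2 or iGLI2 replicate 3 the adjusted p was above 0.05, and it was highest at 0.0744 without iGLI2 replicate 2, where the log2 fold change was 0.27.

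CTNNA1 encodes α-catenin, the link to actin, and was the highest of the 10 in both groups. Its entry spans chromosome 5 from 138089085 to 138270723, and the entry of LRRTM2, at 0.0134 FPKM or less, gives the same span. Its values were 193, 182 and 182 FPKM in the iEV libraries, against 190, 202 and 208 in the iGLI2 libraries. The lowest iGLI2 library lay below the highest iEV library, and the log2 fold change was 0.11 (95% interval -0.047 to 0.27, limma adjusted p = 0.281).

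CTNND1 encodes p120-catenin, which holds cadherin at the membrane. The table gives it only as an entry merged with its neighbour TMX2, on chromosome 11 from 57479995 to 57586652, so the values below are for both genes together and cannot be divided between them. A further gene in that span, C11orf31, has an entry of its own with a mean of 44.7 FPKM. The merged entry had 164, 159 and 164 FPKM in the iEV libraries, against 147, 133 and 131 in the iGLI2 libraries. The groups did not overlap, but the log2 fold change of -0.24 (standard error 0.068, 95% interval -0.41 to -0.079) had an adjusted p of 0.0504 in limma and did not pass. Without iGLI2 replicate 1, the library nearest to the iEV group, it was -0.30 with an adjusted p of 0.00712.

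JUP encodes plakoglobin, also called γ-catenin, a close relative of β-catenin that serves in both kinds of junction. It lies on chromosome 17 from 39910859 to 39942964, on the minus strand. JUP had 116, 105 and 94.8 FPKM in the iEV libraries, against 101, 117 and 122 in the iGLI2 libraries. The groups overlapped over most of their range, and the log2 fold change was 0.10 (95% interval -0.16 to 0.37, limma adjusted p = 0.530).

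The desmosomal cadherins did not pass the test either. DSG2 encodes desmoglein 2 and DSC2 encodes desmocollin 2, the forms found in simple epithelia, and both lie in the cadherin cluster of chromosome 18. The entry of DSG2 spans 29078027 to 29136874. The entry of DSC2 gives a span, 28645940 to 28742819, that it shares with the entries of DSC1 and DSCAS, and the annotation places DSC2 itself at 28638806 to 28682485, on the minus strand. DSG2 had 54.2, 49.1 and 49.4 FPKM in the iEV libraries, against 58.1, 54.6 and 53.2 in the iGLI2 libraries. Replicate 1 was the highest library in each group, and the iEV library of that number lay above the lowest iGLI2 library. The log2 fold change was 0.12 (95% interval -0.050 to 0.29, limma adjusted p = 0.280). An antisense gene, DSG2-AS1, overlaps DSG2 and has an entry of up to 5.62 FPKM. The strand setting is not given in the sources used here, so how reads over shared stretches of the pair were assigned is unknown.

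DSC2 had 11.8, 8.502 and 8.502 FPKM in the iEV libraries, against 12.4, 10.1 and 9.97 in the iGLI2 libraries. Replicate 1 again stood above replicates 2 and 3 in both groups. The log2 fold change was 0.17 with a wide 95% interval of -0.19 to 0.53 (limma adjusted p = 0.465), and without iEV replicate 1 it was 0.31. The other desmosomal cadherins, DSC1, DSC3, DSG1, DSG3 and DSG4, which are typical of stratified epithelia, did not exceed 0.427 FPKM in any library. DSG2 held between 81.3% and 84.3% of the summed FPKM of the 7 desmosomal cadherins in iEV libraries and between 81.6% and 83.2% in iGLI2 libraries.

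PKP3 encodes plakophilin 3, an armadillo protein of the desmosomal plaque that binds desmoplakin and the desmosomal cadherins. It lies near the end of chromosome 11 from 392599 to 404908, on the plus strand, with 13 exons in the canonical transcript. PKP3 had 59.7, 61.7 and 59.4 FPKM in iEV replicates 1, 2 and 3, which differed by little. In iGLI2 replicates 1, 2 and 3 it had 26.2, 32.6 and 35.5 FPKM, all far below the iEV libraries. PKP3 fell by 0.93 on the log2(FPKM + 1) scale (standard error 0.11, 95% interval -1.21 to -0.65, limma adjusted p = 0.00362), and 364 of the 12493 genes tested had a lower log2 fold change. Leaving out each library in turn kept the log2 fold change between -1.02 and -0.81 and the highest adjusted p was 0.0242.

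DSP encodes desmoplakin, the plaque protein that anchors keratin filaments. It lies on chromosome 6 from 7541870 to 7586946. DSP had 9.53, 8.54 and 9.46 FPKM in the iEV libraries, against 7.25, 7.78 and 7.61 in the iGLI2 libraries. No iGLI2 library reached the iEV range. DSP fell by 0.25 on the log2(FPKM + 1) scale (standard error 0.065, 95% interval -0.41 to -0.092, limma adjusted p = 0.0422). This call was lost when any library was left out, with an adjusted p of up to 0.156 without iEV replicate 3, and it was lost under 5 of the 9 other alternatives, so that it lies at the threshold.

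**Figure D2:**
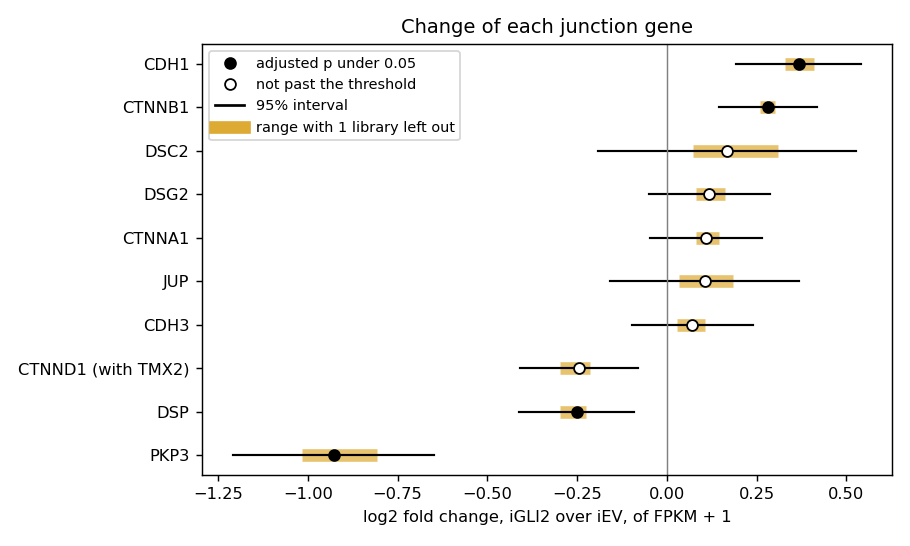
Log2 fold change of FPKM + 1 (iGLI2 over iEV, x axis) for the 10 junction genes, with the 95% interval from limma (lines) and the range when 1 library is left out (yellow bars). Filled points, for CDH1, CTNNB1, DSP and PKP3, have an adjusted p under 0.05, and PKP3 at -0.93 lies apart from the other 9, which are between -0.25 and 0.37.

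In the order of levels, CTNNA1 came first in both groups and DSC2, DSP and CDH3 came last. In iEV libraries the order of means was CTNNA1, the CTNND1 entry, CTNNB1, JUP, PKP3, CDH1, DSG2, DSC2, DSP and CDH3. In that order the ranges of CTNNB1 and JUP overlapped, as did those of CDH1 and DSG2 and those of DSC2 and DSP. In iGLI2 libraries PKP3 stood below CDH1 and DSG2 instead of above them, and CTNNB1 and the CTNND1 entry had ranges that overlapped. Levels between genes are per length of transcript, and depend on the transcript lengths the authors' software assumed.

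The promoters of the members are shown because 2 of the genes that passed the test, CTNNB1 (higher) and DSP (lower), have entries in the RefSeq table of promoters, and DSG2 is printed as a desmosomal gene that did not pass. Each run below gives the 250 bases before the annotated start, 5′ to 3′, with E-boxes (CACCTG or its reverse complement CAGGTG) in capitals.
CTNNB1: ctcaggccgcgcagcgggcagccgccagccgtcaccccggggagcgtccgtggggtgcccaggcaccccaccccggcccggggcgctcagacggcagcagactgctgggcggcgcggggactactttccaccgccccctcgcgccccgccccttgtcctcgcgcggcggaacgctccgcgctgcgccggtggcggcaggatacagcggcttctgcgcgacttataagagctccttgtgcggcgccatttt
DSP: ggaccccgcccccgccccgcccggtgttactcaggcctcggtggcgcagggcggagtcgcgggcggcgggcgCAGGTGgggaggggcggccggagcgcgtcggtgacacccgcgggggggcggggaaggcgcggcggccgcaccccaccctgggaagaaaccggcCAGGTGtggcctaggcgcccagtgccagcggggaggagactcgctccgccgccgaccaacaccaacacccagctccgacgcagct
DSG2: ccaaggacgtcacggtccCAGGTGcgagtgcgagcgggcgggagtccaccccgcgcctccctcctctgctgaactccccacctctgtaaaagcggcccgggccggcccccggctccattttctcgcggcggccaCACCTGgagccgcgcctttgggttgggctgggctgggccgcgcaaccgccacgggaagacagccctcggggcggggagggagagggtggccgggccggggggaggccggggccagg
In GRCh38.p14 these are chr3:41199255-41199504, chr6:7541421-7541670 and chr18:31497927-31498176, all on the plus strand. The DSP promoter held 2 E-boxes, whose first bases lie at -178 and -85 counted from the start, the DSG2 promoter held 2, at -232 and -116, and the CTNNB1 promoter held 0. Entries were matched for 6 of the 10 genes, the other 3 being CTNNA1, DSC2 and JUP. CDH1, CDH3, CTNND1 and PKP3 had no entry. Of the 6, 3 held an E-box (DSC2 held 1), where 17.5% of 27305 promoters did, searched on both strands. The GLI consensus GACCACCCA was found in 0 of the 6 and in 0.216% of all promoters. The GC box GGGCGG was found in all 6 and in 42.3% of all promoters, and the 6 had a GC content between 59.6% and 80.0%, against a median of 58.0%. A match is a description of the letters and says nothing of binding.

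Ratios between junction genes within a library do not depend on how the libraries were scaled. Of the 7 ratios compared, 4 had groups that did not overlap, all of them lower in iGLI2 cells. In 3 of these 4 the denominator is CDH1, which was itself higher in iGLI2 cells, so that they are not separate observations. With 3 libraries a group the smallest p of the exact two-sided permutation test is 0.1, which these 4 had (adjusted p = 0.175 over the 7 ratios). The ratio of CTNNA1 to CDH1 was 3.43, 3.56 and 3.48 in the iEV libraries, against 2.94, 2.92 and 2.87 in the iGLI2 libraries. Its SD on the log2 scale was 0.027 in iEV and 0.019 in iGLI2 libraries, the smallest of the 7 ratios in both groups, although CTNNA1 by itself did not pass the test. The ratio of the CTNND1 entry to CDH1 was 2.91, 3.12 and 3.15 in iEV libraries and 2.28, 1.92 and 1.81 in iGLI2 libraries. For CDH3 to CDH1 it was 0.107, 0.127 and 0.112 against 0.0945, 0.1003 and 0.0884. The ratio of PKP3 to DSP was 6.26, 7.22 and 6.27 in iEV libraries and 3.62, 4.19 and 4.66 in iGLI2 libraries. The log2 difference of that ratio was -0.67.

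The other 3 ratios had groups that overlapped. For β-catenin to E-cadherin (CTNNB1 to CDH1) the mean ratio was 2.15 in iEV and 2.02 in iGLI2 libraries (exact permutation p = 0.4, adjusted p = 0.467). For plakoglobin to β-catenin (JUP to CTNNB1) it was 0.919 and 0.813 (exact permutation p = 0.4, adjusted p = 0.467). For DSC2 to DSG2 it was 0.186 and 0.195 (exact permutation p = 0.6, adjusted p = 0.6), and without iGLI2 replicate 1 the sign of this difference changed.

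**Figure D3:**
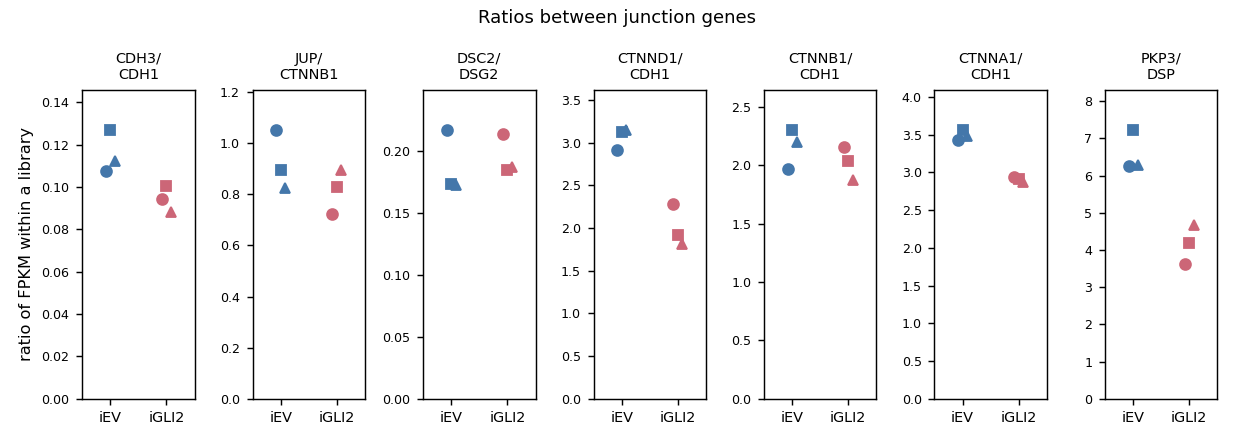
Ratio of FPKM between pairs of junction genes within each library (y axes from 0, 1 panel per pair), for 3 iEV (blue) and 3 iGLI2 (red) libraries, with circles, squares and triangles for replicates 1, 2 and 3; CTNND1 stands for the entry merged with TMX2. The groups do not overlap for CDH3/CDH1, CTNND1/CDH1, CTNNA1/CDH1 and PKP3/DSP.

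Among the further genes of the desmosome, 10 were listed and 4 were tested, of which 2 passed as higher and 1 as lower, with a median log2 fold change of 0.36. Over all genes tested, 10.1% passed as higher and 11.8% as lower. PKP2, encoding plakophilin 2, the form that simple epithelia share with heart muscle, had 12.7, 12.0 and 13.0 FPKM in the iEV libraries, against 17.95, 18.3 and 20.4 in the iGLI2 libraries. PKP2 rose by 0.55 on the log2(FPKM + 1) scale (limma adjusted p = 0.00404), the direction opposite to PKP3, and the call held with each library left out in turn. PKP1, plakophilin 1, stayed under the filter at 0.270 to 0.827 FPKM. PKP3 made up between 81.4% and 82.8% of the summed FPKM of the 3 plakophilins in iEV libraries and between 58.8% and 63.7% in iGLI2 libraries. The share of PKP2 was between 16.0% and 17.8% in iEV and between 35.8% and 40.2% in iGLI2 libraries. The sum was between 73.0 and 74.5 FPKM in iEV and between 44.6 and 56.3 FPKM in iGLI2 libraries, so the rise of PKP2 did not make up for the fall of PKP3 in summed FPKM. The plakophilin sum was put together after the values had been seen and was not tested.

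**Figure D4:**
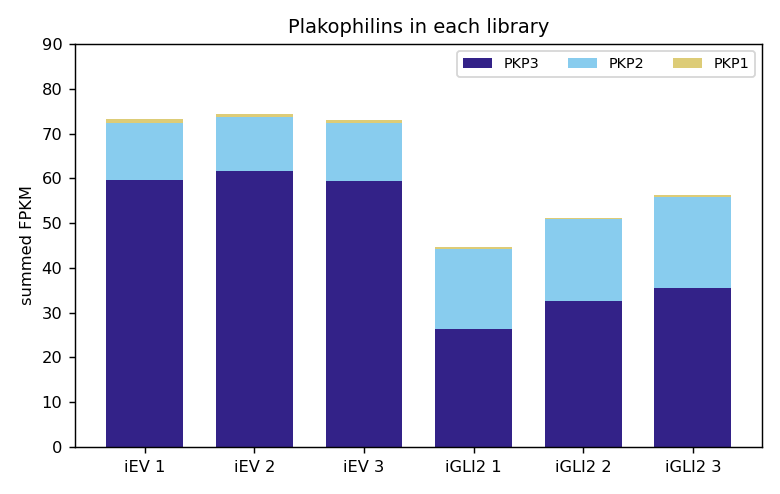
Summed FPKM of PKP3, PKP2 and PKP1 (stacked bars, y axis from 0) in each of the 6 libraries. The sum is 73.0 to 74.5 FPKM in iEV and 44.6 to 56.3 FPKM in iGLI2 libraries, with less PKP3 and more PKP2 in each iGLI2 library.

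The plakins periplakin and envoplakin, which join desmosomes to the cornified envelope of stratified epithelia, went in opposite directions. PPL had 25.3, 25.6 and 24.8 FPKM in the iEV libraries, against 30.5, 41.8 and 45.0 in the iGLI2 libraries. PPL rose by 0.59 on the log2(FPKM + 1) scale (limma adjusted p = 0.0360), a call that was kept without iGLI2 replicate 1 and lost without any of the other 5 libraries, with an adjusted p of up to 0.121. EVPL, for envoplakin, had 14.5, 12.7 and 12.1 FPKM in iEV and 7.69, 8.45 and 9.01 FPKM in iGLI2 libraries. EVPL fell by 0.59 on the same scale (limma adjusted p = 0.00786), and the call held with each library left out. PERP, a tetraspan protein of desmosomes, had 126 ± 19.5 and 145 ± 47.2 FPKM (SD, n = 3 each) and did not pass (limma adjusted p = 0.651).

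Of the further genes of the adherens junction, 34 symbols were listed, among them older and newer names of the same genes, 28 were in the table and 18 were tested. In these, 1 passed as higher and 5 as lower, where 10.1% and 11.8% of all genes tested did. The median log2 fold change was -0.021, next to -0.015 for all genes tested. PVRL1, encoding nectin-1, an immunoglobulin-like adhesion protein that recruits afadin, rose from 11.3 ± 0.806 to 19.1 ± 0.684 FPKM (SD, n = 3 each, log2 difference 0.71, limma adjusted p = 0.00161). PLEKHA7, which binds p120-catenin at the apical adherens junction, fell from 15.0 ± 2.89 to 7.64 ± 0.451 FPKM (SD, n = 3 each, log2 difference -0.87, limma adjusted p = 0.00756). CTNNAL1, encoding α-catulin, a relative of α-catenin, fell from 61.8 ± 4.37 to 44.4 ± 1.62 FPKM (SD, n = 3 each, log2 difference -0.46, limma adjusted p = 0.00846). The calls of these 3 genes held whichever library was left out.

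The p120 relatives ARVCF and PKP4 also passed as lower. ARVCF had 3.49 ± 0.0618 and 2.73 ± 0.0682 FPKM (SD, n = 3 each, log2 fold change -0.27, limma adjusted p = 0.0291), and PKP4 had 23.1 ± 0.857 and 19.3 ± 0.934 FPKM (SD, n = 3 each, log2 fold change -0.25, limma adjusted p = 0.0376). LIMA1, encoding the actin-binding protein EPLIN that associates with α-catenin, passed as lower with a log2 difference of -0.38 (adjusted p = 0.0231 in limma). These 3 calls were not kept without iEV replicate 2, iEV replicate 3, iGLI2 replicate 2 or iGLI2 replicate 3, each of which left 3 genes of the list past the threshold, and adjusted p reached 0.0996 for ARVCF, 0.135 for PKP4 and 0.0962 for LIMA1. ARVCF and PKP4 lost the call without iEV replicate 1 too. The most abundant genes of the list that did not pass were ACTN4 (389 ± 20.6 and 462 ± 115 FPKM, SD, n = 3 each, limma adjusted p = 0.480) and ACTN1 (130 ± 7.48 and 158 ± 22.0 FPKM, SD, n = 3 each, limma adjusted p = 0.153), which encode α-actinins that crosslink actin at the junction.

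The list of enzymes and adaptors of cadherin shedding, phosphorylation and turnover had 16 genes, all tested. Of these, 3 were higher and 4 lower, against 10.1% and 11.8% of all genes tested, and the median log2 fold change was 0.00036. FYN and SRC encode kinases of the same family and moved in opposite directions. FYN rose from 10.6 ± 0.441 to 19.1 ± 2.45 FPKM (SD, n = 3 each, log2 difference 0.78, limma adjusted p = 0.00436). SRC fell from 25.8 ± 2.27 to 16.1 ± 1.31 FPKM (SD, n = 3 each, log2 difference -0.64, limma adjusted p = 0.00587). The phosphatase genes PTPRK (log2 fold change -0.64, limma adjusted p = 0.00292) and PTPN1 (-0.36, limma adjusted p = 0.00709) were lower, and the calls of these 4 genes held with each library left out. PTPRM (-0.86, limma adjusted p = 0.0161) was lower and PTPRJ (0.39, limma adjusted p = 0.0407) was higher, also phosphatases, and FER (0.33, limma adjusted p = 0.0407), a kinase that binds p120-catenin, was higher. PTPRM had an iGLI2 mean of 0.712 FPKM and entered the test only through its iEV values. Without iEV replicate 2, iEV replicate 3 or iGLI2 replicate 2 the list had 4 calls, and adjusted p rose to as much as 0.0684 for PTPRM, 0.140 for PTPRJ and 0.117 for FER. ADAM10, the main sheddase of E-cadherin, named here after its values were seen, had 26.1 ± 2.08 and 22.1 ± 3.70 FPKM (SD, n = 3 each) and did not pass (limma adjusted p = 0.241). IQGAP1 (79.5 and 79.2 FPKM in the group means, limma adjusted p = 0.950) and RAB11A (54.2 and 64.1 FPKM, limma adjusted p = 0.264) were the most abundant of the list that did not pass.

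The repressors of CDH1 transcription were mostly near 0 in both groups. Of 11 listed, 7 did not reach a mean of 1 FPKM, and none of these exceeded 0.800 FPKM in any library, ZEB1, ZEB2, SNAI1, TWIST1 and TWIST2 among them. ZEB1 had 0.560, 0.498 and 0.405 FPKM in the iEV libraries, against 0.398, 0.321 and 0.301 in the iGLI2 libraries, so that no iGLI2 library was above an iEV library. The paper reports, for protein in YAPC cells with stable GLI2, that ZEB1 was induced. It also reports more mRNA of EMT markers in YAPC-iGLI2 cells after 3 days of Dox, without naming the genes in its text. For the RNA-seq at 6 days, it gives an EMT gene set as the most significant of the hallmark sets activated. FOXC2 RNA moved opposite to that of ZEB1, without overlap. It had 0.316, 0.135 and 0.298 FPKM in iEV and 0.557, 0.738 and 0.713 FPKM in iGLI2 libraries, and neither gene was tested. Of the 4 tested, 2 passed as higher and 1 as lower (median log2 fold change 0.38), where 10.1% and 11.8% of all genes tested did. SNAI2, encoding SLUG, went from 6.96 ± 1.29 to 11.1 ± 1.63 FPKM (SD, n = 3 each, log2 difference 0.61, limma adjusted p = 0.0379). GSC went from 0.859 ± 0.226 to 1.72 ± 0.186 FPKM (SD, n = 3 each, log2 difference 0.55, limma adjusted p = 0.0273). Its iEV mean was under the filter of 1 FPKM, so it entered the test only through its iGLI2 values. TCF4 fell from 3.12 ± 0.352 to 1.23 ± 0.171 FPKM (SD, n = 3 each, log2 difference -0.88, limma adjusted p = 0.00302). The call of TCF4 held with each library left out. That of SNAI2 was lost without iEV replicate 2, iEV replicate 3, iGLI2 replicate 2 or iGLI2 replicate 3 (adjusted p up to 0.131), and that of GSC without iEV replicate 1, iEV replicate 2, iGLI2 replicate 2 or iGLI2 replicate 3 (adjusted p up to 0.0811). TCF3, which encodes E2A and was the most abundant of the list, had 15.4 and 17.98 FPKM in the group means and did not pass (limma adjusted p = 0.131).

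**Figure D5:**
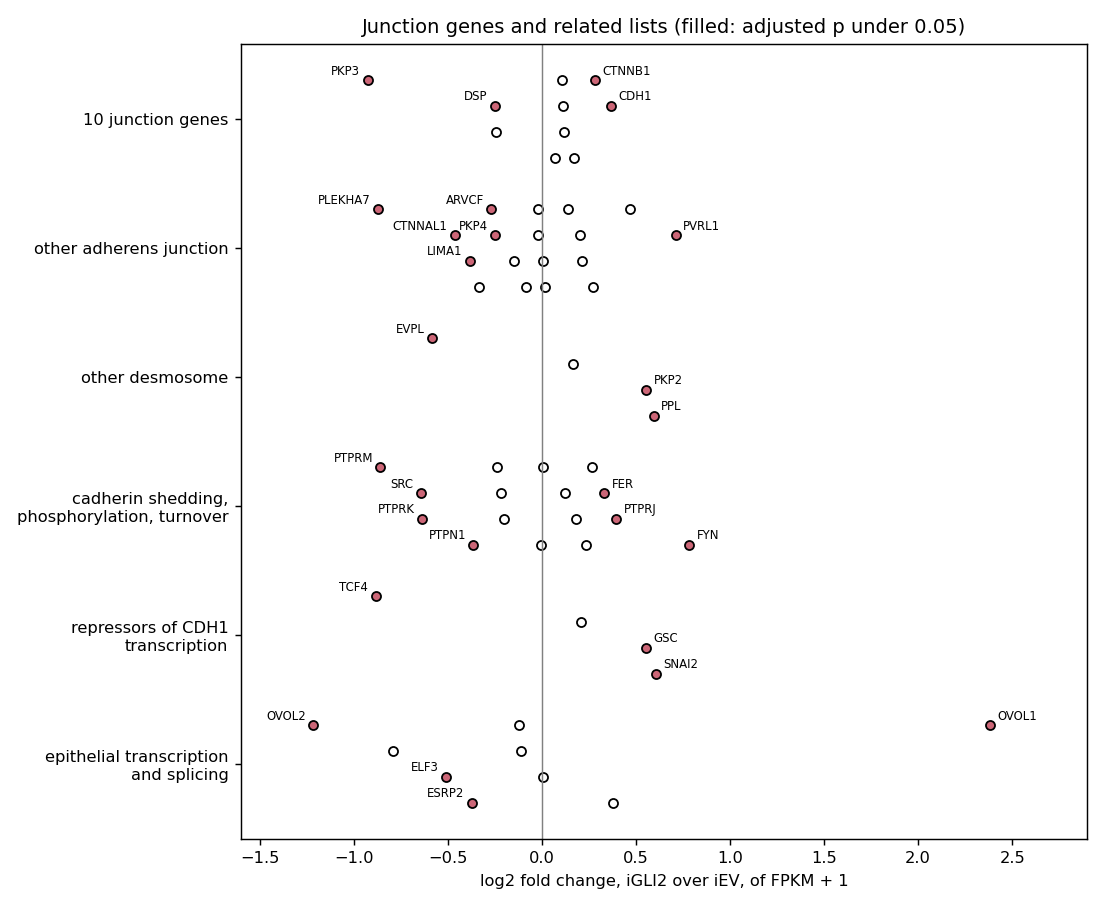
Log2 fold change of FPKM + 1 (iGLI2 over iEV, x axis) for each tested gene of the 10 junction genes and of 5 related lists (rows, with a vertical offset only to separate the points). Filled and named points have an adjusted p under 0.05; the 10 junction genes lie between -0.93 and 0.37, a narrower range than that of the regulators in the bottom row, which reaches from -1.22 for OVOL2 to 2.38 for OVOL1.

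The genes nearest to CDH1 in pattern, by the root mean squared difference of gene-centred log2(FPKM + 1) over the 6 libraries, were EXOC6 (0.0237), ZSWIM8 (0.0254), XPC (0.0295), CLIP2 (0.0345) and FAM161B (0.0357). Their log2 fold changes lay between 0.31 and 0.38, next to 0.37 for CDH1, which follows from how they were picked. FAM161B did not pass the test (limma adjusted p = 0.0650).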

How the data were processed

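Total RNA of 6 YAPC libraries was sequenced from TruSeq preparations. Per the study's methods and the submitters' processing notes, the authors used Trimmomatic for clipping, TopHat2 for alignment (genome build hg19) and Cuffdiff 2.1.1, and they deposited a table with a value per gene and library whose header names no unit. The deposited values are read here as FPKM, since they are not whole and their column totals differ; the annotation, the scaling between libraries and the strand setting are not given in the sources used here. Absolute depth is unknown and no counting interval is given. Relative depth was estimated from genes under a mean of 0.05 FPKM, as the commonest ratio of their values between libraries: against iEV replicate 1 it was 0.926 and 0.873 in iEV replicates 2 and 3 and 1.28, 1.16 and 1.07 in iGLI2 replicates 1, 2 and 3. Between 8.65% and 25.1% of those genes lay at the commonest ratio.

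Of 27024 entries, 1252 outside the primary chromosomes and 330 with a repeated name and a lower mean were left out, and 0 columns were left without a sample. Starts were raised by 1 to be 1-based. Genes averaging 1 FPKM or more over the libraries, 12493 in number, entered limma 3.58.1 (R 4.3.3) on the log2(FPKM + 1) scale (condition only, intensity trend, two-sided, Benjamini-Hochberg), in place of a test of reads. The added 1 understates the change of low genes. The method was tested on simulated data. Ratios were compared with exact permutation tests in scipy 1.17.1. Exons came from GENCODE lifted to GRCh37, promoters from RefSeq on GRCh38.p14. The members and lists were chosen with earlier results of these data known. Named were the 10 genes, GLI2, the list genes that passed, the 2 most abundant of each list that did not, the markers (1 is not reported here), and the 5 genes nearest to CDH1; others were chosen after their values were seen. Alternatives were upper quartile scaling, quantile normalization, small RNA genes left out, a pseudocount of 0.1, no filter, a minimum mean of 5 FPKM, a block for the replicate number or the digit of the library code, limma without the trend, and each library left out.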

Additional observations from a re-analysis of the deposited data

How the results depend on the processing

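No value of the 10 genes changed sign under any alternative run. PKP3 kept its call under all of them, and CDH1 and CTNNB1 kept theirs except with a library left out. The log2 fold change of DSP was -0.25 without a call under no filter (adjusted p = 0.0582), a minimum mean of 5 FPKM (0.0527), the replicate block (0.0521) and the code digit as a block (0.0778), and -0.18 with small RNA genes left out (0.139). For CTNND1 the replicate block gave -0.24 with a call (0.0455). With each library left out in turn, and so fewer samples, the ranges were 0.33 to 0.41 for CDH1, 0.26 to 0.30 for CTNNB1, -0.30 to -0.21 for CTNND1, -0.30 to -0.23 for DSP and -0.0021 to 0.17 for the log2 difference of the DSC2 to DSG2 ratio. The same gave 1 to 4 of the 10 genes past the threshold, 3 to 8 of the other adherens junction genes, 4 to 10 of the turnover genes, 1 to 4 of the CDH1 repressors, 2 to 4 of the epithelial regulators and 1223 (without iEV replicate 2) to 3753 (without iGLI2 replicate 1) of all genes. The CDH1 repressors had 1 call with a minimum mean of 5 FPKM and 1 with the code digit as a block, and the epithelial regulators had 2 with no filter; the cause was not tested. Of 2742 calls over all genes 46.0% were higher, and with small RNA genes left out 59.4% of 3014. In the other lists ARVCF (limma adjusted p = 0.0835), PKP4 (0.106) and ESRP2 (0.0909) lost their calls with small RNA genes left out. Under the same setting the CDH1 repressors had 4 calls, and 2 of the other adherens junction genes passed as higher.

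The replicate numbers were not taken to pair the libraries, since the deviations of same-numbered libraries from their group means correlated at 0.20, 0.092 and 0.028 across the genes tested. Not every library correlated best with its own number: iEV replicate 2 did so with iGLI2 replicate 3, at 0.12. With the replicate block, 3928 genes passed in place of 2742, and 4 of the 10 genes. Among the 10 it changed the calls of CTNND1 and DSP. In the other lists SNAI2 lost its call (adjusted p = 0.0703), and those that gained one included RAB11A (0.0370), ADAM15 (0.0380), NUMB (0.0490), PVRL3 (0.0158) and KLF4 (0.00586). With the code digit as a block instead, 2084 genes passed, and 3 of the 10 genes. Under that block ARVCF, PKP4, PPL, FER, PTPRJ, SNAI2, GSC and OVOL2 lost their calls. The number of fragments behind single values is unknown and limits what can be said of genes under 1 FPKM, such as ZEB1 and CDH2.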

Other observations

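Regulators of transcription and splicing that are typical of epithelia were counted from the same fit. Of 10 listed, 9 were tested, 1 passed as higher and 3 as lower (median log2 fold change -0.12), where 10.1% and 11.8% of all genes tested did. OVOL1 and OVOL2 encode related zinc finger repressors that oppose EMT, and they moved in opposite directions. OVOL1 had 5.08, 3.10 and 2.77 FPKM in the iEV libraries, against 18.4, 26.0 and 24.4 in the iGLI2 libraries, a log2 difference of 2.38 on FPKM + 1 (adjusted p = 0.00133 in limma). OVOL2 had 6.17, 3.63 and 3.62 FPKM in iEV and 2.51, 0.757 and 0.986 FPKM in iGLI2 libraries, a log2 difference of -1.22 (adjusted p = 0.0403 in limma). ELF3, an epithelial ETS factor, fell from 85.0 ± 0.0798 to 59.4 ± 3.70 FPKM (SD, n = 3 each, log2 difference -0.51, limma adjusted p = 0.00391). ESRP2, an epithelial splicing regulator, fell from 15.7 ± 1.198 to 11.9 ± 0.925 FPKM (SD, n = 3 each, log2 difference -0.37, limma adjusted p = 0.0265), while its relative ESRP1 had 85.1 ± 16.2 and 86.2 ± 22.5 FPKM (SD, n = 3 each, limma adjusted p = 0.992). KLF5, of the KLF factors, had 34.8 and 45.1 FPKM in the group means (limma adjusted p = 0.108). KLF4 moved the opposite way, with 34.8 ± 9.56 and 19.8 ± 6.14 FPKM (SD, n = 3 each, log2 fold change -0.79), and did not pass either (limma adjusted p = 0.119). The calls of OVOL1 and ELF3 held with each library left out in turn. Those of OVOL2 and ESRP2 held without iGLI2 replicate 1 and were lost without any of the other 5 libraries, with an adjusted p of up to 0.124 for OVOL2 and 0.105 for ESRP2.

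EPCAM, a homophilic adhesion protein of epithelia outside the cadherin family, rose from 405 ± 11.4 to 523 ± 2.55 FPKM (SD, n = 3 each). The log2 difference was 0.37 (limma adjusted p = 0.00709), the same size as that of CDH1. Of the 6 epithelial markers 4 were tested, and 1 passed as higher (EPCAM) and 1 as lower. The lower one was MUC1, with a log2 difference of -2.29 (limma adjusted p = 0.00013). KRT7 (-0.23, limma adjusted p = 0.388) and KRT19 (-0.18, limma adjusted p = 0.195) also had negative values but did not pass.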
